A study of Mus musculus with 8 samples.

Results

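The miRNAs described here are 4 rows of a mouse miRNA panel that are known as markers of blood-cell lineages, namely mmu-miR-142-5p, mmu-miR-142-3p, mmu-miR-150 and mmu-miR-223. They were chosen by name, as 4 of the 566 mouse miRNA rows among 626 rows in all. Each was read in 4 samples of blood monocytes (MNC) and in 4 samples of Kupffer cells (KC), the macrophages that reside in the liver, all from Balb/C mice. No treatment or genetic change is given for either group, and the age of the mice is not given in the sources used here. Per the labels each sample pooled sorted cells of 5 mice, and 100 ng of total RNA entered each reaction. According to the study's methods, KC came from collagenase-digested liver after a density gradient and MNC from blood after a Ficoll gradient, and both were then sorted with magnetic beads against the same macrophage surface protein. The study compared the miRNA profiles of the resident macrophages with those of circulating monocytes. Nothing in the labels says how the sample numbers of the groups relate, so the main tests did not pair them. The p-values compare pools and not single mice, and those of fits over all rows also use a spread shared between rows.

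A miRNA is a short RNA cut from a hairpin precursor, and it guides silencing proteins to messenger RNAs that pair with its seed, the bases near its 5′ end. Either side of the hairpin can give a mature miRNA, called the 5p and the 3p arm. The miR-142 hairpin is transcribed in nearly all blood-forming lineages and is widely used to mark them. miR-150 is abundant in mature B and T cells and restrains the transcription factor Myb, while miR-223 is a miRNA of granulocytes and monocytes that limits inflammatory signalling.

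The sequences show which molecules the probes are named for, and that the arms of miR-142 come from a single hairpin but carry different seeds. They are RefSeq sequences on build GRCm38.p6, written 5′ to 3′, and capitals mark the seed, bases 2 to 8. RefSeq now calls the mouse miR-142 arms miR-142a. The 5p arm lies at chr11:87756867-87756887 and the 3p arm at chr11:87756903-87756925, both on the plus strand, and miR-223-3p lies at chrX:96242884-96242905 on the plus strand.
mmu-miR-142a-5p: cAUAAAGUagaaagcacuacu
mmu-miR-142a-3p: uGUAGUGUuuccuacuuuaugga
mmu-miR-223-3p: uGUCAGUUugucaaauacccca
Of the 4 panel rows, 3 matched an entry of the RefSeq table used here. None of the 3 seeds occurred at bases 2 to 8 of another of the 1679 mature sequences searched. The Mir142 hairpin at chr11:87756864-87756927, plus strand, is 64 bases long and leaves a loop of 15 bases between the arms, which are in capitals below.
Mir142 hairpin: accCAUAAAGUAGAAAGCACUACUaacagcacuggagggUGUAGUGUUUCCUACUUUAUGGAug
The opposite strand of the same locus gives mmu-miR-142b, at chr11:87756906-87756925 on the minus strand, with its seed in capitals.
mmu-miR-142b: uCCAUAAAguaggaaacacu
All 20 of its bases pair with miR-142a-3p, and it shares a run of 10 bases with miR-142a-5p, CAUAAAGUAG. In the best ungapped alignment with that arm, 16 of 18 overlapping positions matched. How far the panel's miR-142-5p probe reads miR-142b was not tested.

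The panel tags each miRNA by ligation and counts single fluorescent barcodes. The deposited signal is such a barcode count multiplied by a constant for the sample, and dividing by that constant gave back whole counts. A row was called above background in a sample where its count exceeded the highest of the 8 negative control probes, which was 17 to 35 counts. Total mouse miRNA counts were 8669 to 10194 in KC and 5374 to 10568 in MNC. The constant was 1.52 to 1.76 in KC and 0.589 to 1.06 in MNC, and it brought the geometric mean of the 4 mRNA rows to 816 in every sample. MNC 1 stood apart, with the lowest total, the lowest constant and the lowest count of the positive ligation controls (geometric mean 533, against 885 to 2821 in the other samples). Values that moved most with it are given with and without it. Most of the panel was near background, since 362 of the 566 mouse rows (64.0%) were above it in no sample. The counts of 251 rows (44.3%) were below the mean negative control of the sample in all 8 samples. The intervals given for counts (exact Poisson, 95%) and for shares (exact Clopper-Pearson, 95%) cover counting error only.

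Among the 4 miRNAs, miR-142-5p was the most counted in every sample, and it led or nearly led the whole mouse panel in both cell types. It ranked 1, 2, 3 and 1 among the 566 mouse rows in KC 1 to KC 4, and 1, 1, 1 and 2 in MNC 1 to MNC 4. The rows above it were miR-122, the hepatocyte miRNA, in KC 2 and KC 3, miR-1944 in KC 3, and the red-cell miRNA miR-486 in MNC 4. miR-142-5p was among the 8 mouse rows that were above background in all 8 samples, and it was the sole member of the 4 to be so. miR-150 followed it, at ranks 34, 9, 14 and 7 in KC and 57, 4, 4 and 3 in MNC. miR-142-3p sat near background at ranks 40 to 133, and miR-223 was below the mean negative control in every sample, at ranks 232 to 516. The probes of different rows need not count with the same efficiency, so ranks order barcodes and not molecules. The 4 rows together took 6.14 to 6.80% of the mouse miRNA count in KC and 8.98 to 12.1% in MNC.

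**Figure D1:**
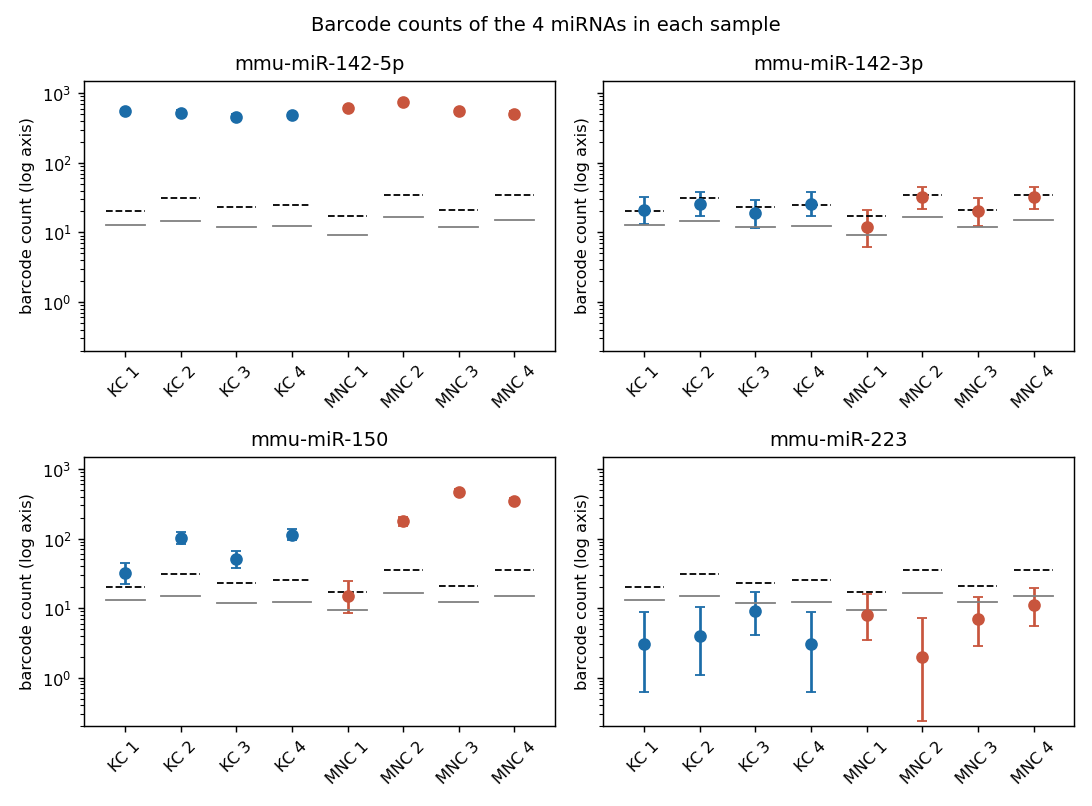
Barcode counts (log axis) of the 4 miRNAs in each KC (blue) and MNC (red) sample, with exact Poisson 95% intervals (bars); the dashed line is the highest and the grey line the mean of the sample's 8 negative controls. miR-142-5p stood at 459 to 745 counts in all 8 samples, miR-150 ranged from 15 to 463, miR-142-3p lay beside the dashed line, and miR-223 lay at 2 to 11 counts, under the grey line throughout.

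The barcode counts of miR-142-5p were 554, 526, 459 and 483 in KC 1 to KC 4, a mean of 505.5 ± 42.6 (SD, n = 4). In MNC 1 to MNC 4 they were 616, 745, 555 and 505, a mean of 605 ± 104 (SD, n = 4). The groups overlapped, and every count was at least 14.4 times the highest negative control of its sample. As a share of the mouse miRNA count, miR-142-5p took 4.74 to 5.91% in KC and 5.05 to 11.5% in MNC. The highest share was that of MNC 1 (11.5%, interval 10.6 to 12.3%), whose miR-142-5p count lay between those of MNC 2 and MNC 3 while its total was the lowest. In an exact two-sided permutation test, neither the log2 count (KC minus MNC -0.25, p = 0.114) nor the log2 share (-0.42, p = 0.143) separated the groups. Without MNC 1 the difference in log2 share was -0.19 (exact permutation p = 0.257). Fewer cells that carry a miRNA and less of it per cell cannot be told apart in such pools.

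On the deposited signal the same row was higher in KC. It read 844.81, 924.7, 758.62 and 749.78 in KC (819 ± 82.2, SD) and 363.06, 543.93, 587.73 and 403.35 in MNC (475 ± 108, SD). All 4 KC samples lay above all 4 MNC samples, as they did for 36.9% of the mouse rows. The difference in log2 signal was 0.81 (exact two-sided permutation p = 0.0286, the smallest that 4 against 4 samples allow). In limma over all mouse rows the difference was 0.81 on the log2(signal + 1) scale (SE 0.81, 95% interval -0.86 to 2.48, adjusted p = 0.388). The wide interval came with limma's trend, which set the spread of this row at an SD of 1.15 from its high level, while its own SD was 0.256. Without the trend, limma's adjusted p was 0.0814, and 25.4% of all rows but none of the 4 miRNAs were then called higher. Among the 54 rows that were above background on average, limma called miR-142-5p higher in KC (adjusted p = 0.00634), along with 74.1% of those rows.

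The direction of the miR-142-5p difference followed the scale on which the samples were set side by side. Per 1000 counts of the positive ligation controls, synthetic RNAs that pass through the tagging step, it read 163 to 397 in KC and 499 to 1155 in MNC. All KC samples lay below all MNC samples on that scale, as for 26.5% of the mouse rows. limma then gave -1.48 (adjusted p = 0.0384), and 45.6% of the mouse rows, all 4 of these miRNAs among them, were called lower in KC. Without MNC 1 the miR-142-5p difference on that scale was -1.22 (adjusted p = 0.0523) and only miR-150 of the 4 was called lower, along with 7.07% of the mouse rows, in a fit chosen after seeing the data. The median of all mouse rows moved too, from 0.94 on the deposited signal to 0.00 on the barcode counts, -0.14 at equal totals and -1.09 on the ligation scale. Relative to that median, miR-142-5p differed by -0.13 on the deposited signal and by -0.39 on the ligation scale, and without MNC 1 by 0.03 and -0.20.

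**Figure D2:**
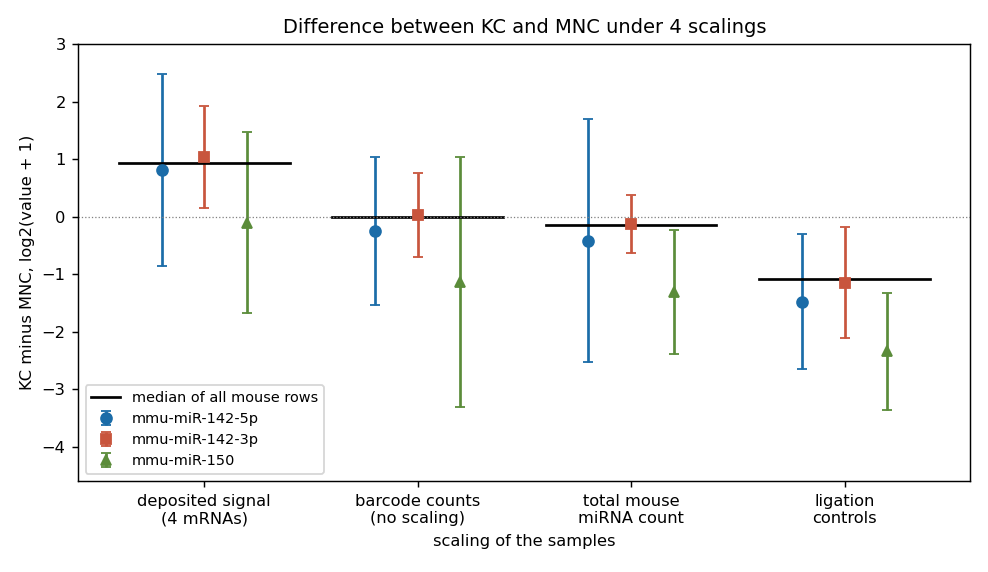
KC minus MNC differences of miR-142-5p, miR-142-3p and miR-150 on the log2(value + 1) scale, under 4 scalings of the samples, with limma's 95% intervals (bars); the black line is the median difference of all 566 mouse rows under that scaling. The miR-142 arms moved with the black line, from 0.81 and 1.04 on the deposited signal to -1.48 and -1.15 on the ligation controls, and miR-150 lay below the line under each scaling.

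miR-142-3p, the other product of the hairpin, gave counts close to the negative controls. They were 21, 26, 19 and 26 in KC (23 ± 3.56, SD, n = 4) and 12, 32, 20 and 32 in MNC (24 ± 9.80, SD, n = 4). It was above background in KC 1 and KC 4, where it exceeded the highest negative control by 1 count each, and in no MNC sample. In all 8 samples its count was above the mean negative control, at 1.30 to 2.12 times that mean. Its share of the mouse count was 0.219 to 0.269% in KC and 0.223 to 0.32% in MNC, and these ranges overlapped.

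The deposited signal of miR-142-3p was 32.02, 45.71, 31.4 and 40.36 in KC and 7.07, 23.36, 21.18 and 25.56 in MNC. All 4 KC samples lay above all 4 MNC samples on this scale, as they did for 36.9% of the mouse rows. The scaling constants did not overlap either (1.52 to 1.76 in KC, 0.589 to 1.06 in MNC). limma gave a difference of 1.04 (SE 0.43, 95% interval 0.16 to 1.92, adjusted p = 0.0597), and of 0.64 without MNC 1 (adjusted p = 0.0586). Neither passed the threshold of 0.05, although the exact permutation test on this row's own log2 signal gave the smallest possible p (0.0286). With a pseudocount of 10 in place of 1, limma called it higher in KC (0.74, adjusted p = 0.0451), along with 44.5% of all mouse rows. On the barcode counts the difference was 0.03 (exact permutation p = 0.914), and it turned to -0.26 without MNC 1 (exact permutation p = 0.371). On the ligation scale limma gave -1.15 (adjusted p = 0.0469) and, without MNC 1, -1.20 (adjusted p = 0.0944). The difference on the signal scale was 0.10 from the median of all rows, and MNC has only a bound for this row because none of its samples was above background. With each MNC value set at its highest negative control, the KC to MNC ratio of geometric means was 1.85 on the signal and 0.886 on the counts.

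The ratio of the 5p to the 3p arm carries no scaling constant. It was 26.4, 20.2, 24.2 and 18.6 in KC (22.3 ± 3.57, SD) and 51.4, 23.3, 27.7 and 15.8 in MNC (29.5 ± 15.4, SD). The KC ratios lay inside the range of the MNC ratios, and the highest ratio was that of MNC 1, which had the lowest 3p count. The mean log2 ratio was 4.47 ± 0.23 in KC and 4.75 ± 0.71 in MNC, a difference of -0.28, and of 0.03 without MNC 1. Since the 3p arm was not above background in MNC, this comparison is given as a description only. Set against the higher of the 3p count and the highest negative control, miR-142-5p was at least 16.97 to 26.4 times the 3p arm in the KC samples and at least 14.4 to 36.2 times in the MNC samples. After the mean negative control was subtracted from both arms, the ratio was 34.5 to 66.6 in KC and 29.03 to 220.6 in MNC. The arms have different probes, so the ratio compares samples and gives no count of molecules.

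miR-150 is the lymphocyte miRNA of the 4. The KC samples gave 32, 101, 50 and 114 counts (74.3 ± 39.4, SD, n = 4) and the MNC samples 15, 178, 463 and 350 counts (251.5 ± 196, SD, n = 4). All samples but MNC 1 were above background, while MNC 1, at 15 counts, was below its highest negative control of 17. Its highest count was 30.9 times its lowest in MNC and 3.56 times in KC, against 1.48 and 1.21 times for miR-142-5p. The MNC figure rests on MNC 1, which was not above background, and MNC 2 to MNC 4 spanned 2.60 times, less than the KC samples. As a share of the mouse count it took 0.341 to 1.12% in KC and 0.279, 1.68, 5.31 and 3.50% in MNC 1 to MNC 4. MNC 1 was thus below all KC samples, and the other MNC samples were above all of them.

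Over all 8 samples, neither the deposited signal nor the share of miR-150 separated KC from MNC. The deposited signal was 48.8, 177.56, 82.64 and 176.97 in KC and 8.84, 129.96, 490.3 and 279.55 in MNC. limma gave -0.11 (SE 0.77, 95% interval -1.68 to 1.47, adjusted p = 0.897). It set the spread of this row at an SD of 1.09, while the row's own SD was 1.87. The difference in log2 share was -1.31 (exact permutation p = 0.257). With MNC 1 left out, the share was lower in KC, by a log2 difference of -2.19. Its exact permutation p was 0.0286, the smallest of the 35 splits. On the signal without MNC 1, limma gave -1.29 (adjusted p = 0.0524) and the exact permutation test gave -1.30 (p = 0.171). Only MNC 1 was left out of these exact tests. The direction on the signal turned when KC 1 (0.26), KC 3 (0.01), MNC 3 (0.59) or MNC 4 (0.32) was left out instead, with limma's adjusted p from 0.468 to 0.987. On the ligation scale limma called miR-150 lower in KC (-2.34, adjusted p = 7.92e-04), which was -1.26 relative to the median of all rows. Per 1000 counts of the positive ligation controls it read 13.0 to 93.7 in KC and 28.1 to 417 in MNC, and the groups overlapped. Without MNC 1 limma's difference on that scale was -3.18 (adjusted p = 5.06e-08), or -2.16 relative to the median of all rows. That p uses a spread that limma shares over all rows, in a fit chosen after seeing the data. The smallest p that an exact test of 3 against 4 samples allows is 0.0286.

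The ratio of miR-150 to miR-142-5p within a sample was 0.0578, 0.192, 0.109 and 0.236 in KC. In MNC it was 0.0243, 0.239, 0.834 and 0.693, so MNC 1 had the lowest ratio of all and the other MNC samples the highest. The miR-150 count of MNC 1 was not above background, so its ratio has only an upper bound, 0.0276, set by the highest negative control. The ratio entered the test as read. The mean log2 ratio differed by -0.89 (exact two-sided permutation p = 0.543) and, without MNC 1, by -1.99 (exact permutation p = 0.0571). Ratios with miR-223 were not computed because that row was at background in every sample.

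**Figure D3:**
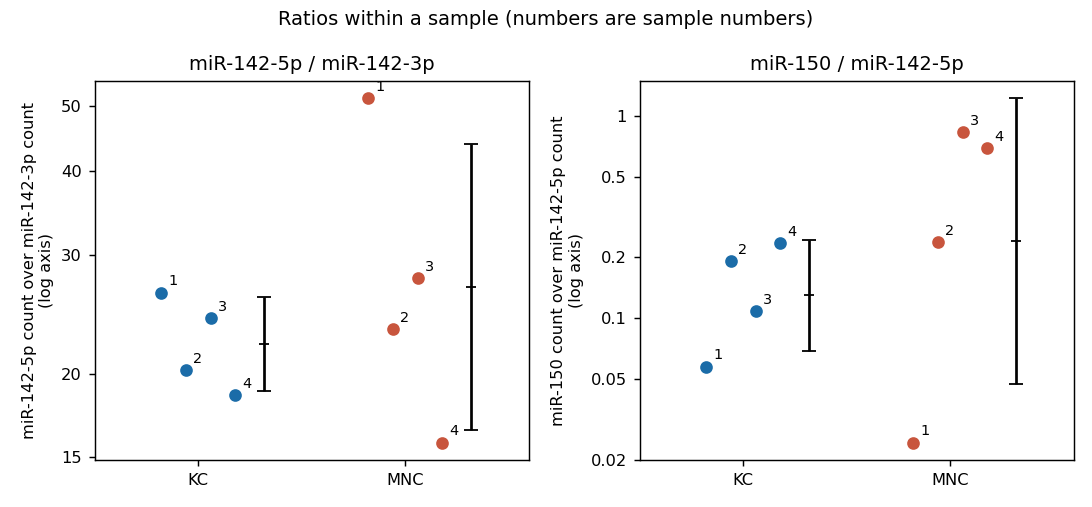
Ratios of barcode counts within each sample (log axes), miR-142-5p over miR-142-3p at left and miR-150 over miR-142-5p at right; points are samples with their number, and the black mark with bars is the mean ± SD of the log2 ratio. The arm ratio of MNC 1 (51.4) stood above 15.8 to 27.7 in all other samples, and its miR-150 ratio (0.0243, from a miR-150 count not above background) stood below 0.0578 to 0.834.

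Relative to the median of the other 562 mouse rows of the same sample, no difference between the cell types passed the threshold for miR-142-5p or miR-150. On the log2(signal + 1) scale miR-142-5p stood 5.55 ± 0.15 (SD) above that median in KC and 5.67 ± 0.37 in MNC, a difference of -0.12 (exact permutation p = 0.629). Against the total of the other rows, with the mean negative control subtracted, its difference was -0.81 (exact permutation p = 0.0857). miR-142-3p stood 1.12 ± 0.15 above it in KC and 1.01 ± 0.29 in MNC, a difference of 0.11, given as a description because no MNC sample of this row was above background. miR-150 stood 2.62 ± 0.82 above it in KC and 3.65 ± 1.97 in MNC, a difference of -1.04 (exact permutation p = 0.4), and of -1.67 after that subtraction (exact permutation p = 0.257). Without MNC 1 the miR-150 difference was -1.94 (exact permutation p = 0.0286), while leaving out any other sample gave the same sign with no p below the threshold. These exact tests were not adjusted for their number. In the limma fit over all rows, none of the 4 miRNAs was called in either direction, while 24.7% of all mouse rows were called higher and 0% lower in KC. At an unadjusted limma p under 0.05, 1 of the 4 (miR-142-3p) was higher and 0 were lower, and 307 of all mouse rows were higher and 0 lower. The exact Mann-Whitney test gave both miR-142 arms an adjusted p of 0.0774. All rows whose groups did not overlap on the signal (36.9% of the mouse rows) shared that value, and no mouse row passed in this test.

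miR-223, the granulocyte and monocyte miRNA, was not detected in either cell type. It gave 3, 4, 9 and 3 counts in KC and 8, 2, 7 and 11 counts in MNC, each under the mean negative control of its sample (9.25 to 16.5). The highest upper limit of a count interval was 19.7, in MNC 4, where the highest negative control was 35. The highest negative control of a sample was 2.76 to 6.93% of its miR-142-5p count, and rows below that level could not be told from background. After subtraction of the mean negative control all 8 values sat at the floor of 1 count and differed by the scaling constant alone, and limma called the row higher in KC, with 58.7% of all mouse rows. No fold is given for miR-223. A column kit for total RNA was used, and whether it kept short RNA is not stated, so a count at background need not mean that the cells lacked the miRNA.

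Marker rows of other cells were read beside the 4 miRNAs. The summed count of 4 hepatocyte rows (miR-122, miR-192, miR-194 and miR-148a) was 220 to 723 in KC and 22 to 79 in MNC. miR-122 alone made that gap, with 161 to 685 counts in KC and 2 to 7 in MNC, while the groups overlapped in the other rows. That of 3 red-cell rows (miR-451, miR-486 and miR-144) was 90 to 123 in KC and 105 to 636 in MNC. The overlap came from MNC 1, as the other MNC samples summed to 278, 553 and 636. miR-451 had 6 to 9 counts in KC and 18 to 39 in MNC, with no overlap, and was above background in 2 MNC samples. On the barcode counts, 6 of the 566 mouse rows were lower and 13 higher in KC without overlap. The 3 lymphocyte rows other than miR-150 (miR-181a, miR-342-3p and miR-155) summed to 38 to 64 in KC and 17 to 91 in MNC, with miR-342-3p and miR-155 above background in no sample. The 2 rows of endothelium and platelets (miR-126-3p and miR-126-5p) summed to 4 to 6 counts in KC and 6 to 14 in MNC, above background in none. The part of such cells in the miR-150 and miR-142 values was not tested.

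The rows whose share followed that of miR-150 most closely were miR-486 (Pearson r = 0.84), miR-181a (0.80) and miR-25 (0.75). These r are taken over log2 shares in 8 samples among 54 other rows above background in at least 4 samples, as a description, and all shares of a sample use the same total. miR-486, abundant in red cells, had 107, 114, 78 and 88 counts in KC and 63, 258, 522 and 617 in MNC. Both rows were low in MNC 1 and high in MNC 3 and MNC 4, while in KC they did not move together: KC 1 had the fewest miR-150 counts and more miR-486 counts than KC 4, which had the most miR-150. miR-181a, abundant in developing lymphocytes, had 33, 58, 41 and 49 counts in KC and 11, 48, 51 and 74 in MNC. MNC 1 had the lowest count of miR-150, miR-486, miR-181a and miR-25 alike, and also the lowest total. Without MNC 1 the r to miR-150 were 0.88, 0.77 and 0.82. For miR-142-5p the nearest rows were miR-203 (r = 0.88), miR-1962 (0.87) and miR-467e (0.86), and the last fell to 0.34 without MNC 1.

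**Figure D4:**
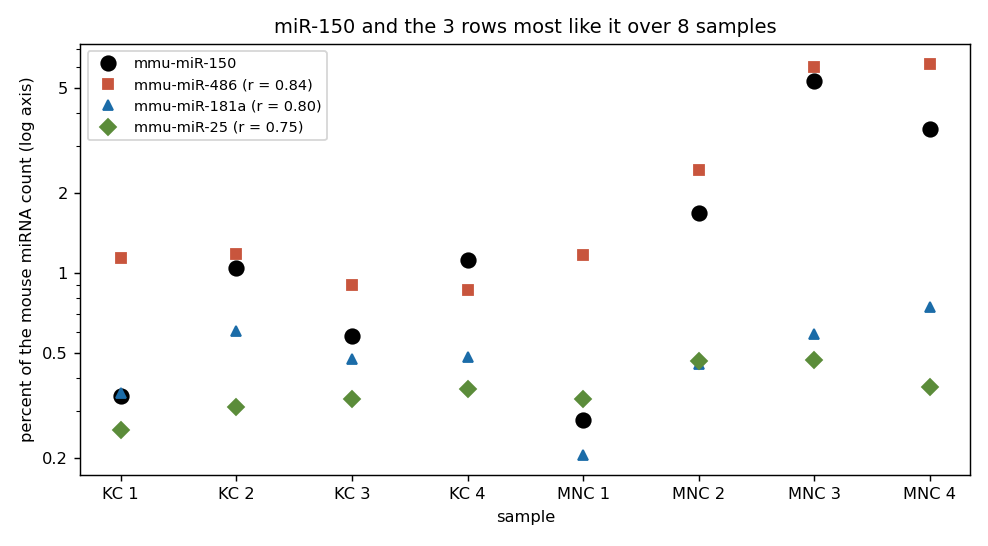
Share of the mouse miRNA count (percent, log axis) of miR-150 (black) and of the 3 rows with the highest Pearson r to it over the 8 samples; each point is 1 sample. miR-150 and miR-486 reached their highest shares in MNC 3 and MNC 4, and miR-150 and miR-181a had their lowest share in MNC 1 (0.279% for miR-150).

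Other miRNAs known from blood cells were taken from a list. Of 26 listed names, 25 were found on 24 panel rows, since some rows join close relatives. limma called 6 of the 24 higher in KC and 0 lower on the deposited signal, beside 24.7% of all rows higher. At an unadjusted p under 0.05, 12 of the 24 and 307 of the 566 rows were higher and 0 of either lower. The median difference was 0.90 against 0.94 for all rows. The 6 were miR-16 (1.58, adjusted p = 0.0283), miR-30b (1.43), miR-181b with miR-181d (1.33), miR-29b (1.23), miR-29a and miR-30c. The last pair were above background in 1 KC sample and no MNC sample, so their differences are not given, and miR-29b and the miR-181b row were above it in 3 KC and 2 MNC samples. miR-16, a brake on cell cycle genes, and miR-30b were above background in all 8 samples. miR-181a was above it in all KC samples and miR-15b, a relative of miR-16, in all MNC samples, and 11 rows of the list were above it in none. miR-155, which activated macrophages and lymphocytes induce, stood at 1 count in all KC samples and in MNC 3 and at the floor of the deposited values in the other MNC samples, and miR-21 stood at 2 to 7 counts. On the barcode counts limma called none of the 24, beside 0.177% of all rows higher, and at an unadjusted p under 0.05 it had 0 higher and 1 lower, against 17 and 12 of the 566 rows. Leaving out KC 1, KC 2 or KC 4 also left 0 of the 24 called on the deposited signal, with 9, 6 and 9 of them, and 242, 206 and 219 of the 566 rows, higher at an unadjusted p under 0.05. The adjusted calls over all rows fell with them, to 5.83%, 4.59% and 7.24%.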

How the data were processed

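miRNA levels were read with the nCounter Mouse miRNA panel 1.5, and per the study's methods the data went through nSolver Analysis Software 4.0. The deposited values are a normalized signal that the authors made from barcode counts. The study says that reference miRNAs were used in this assay, but names neither these nor the steps. In the deposited values it is the mRNA rows that share their geometric mean across samples, and values listed at 1 form a floor in MNC 1, MNC 2 and MNC 4. Counts were recovered from each sample's factor (all tested values whole within 0.02) and were not given to a count model.

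Samples were grouped by source name. log2(signal + 1) of 566 mouse rows was fitted with limma 3.58.1 (trend, R 4.3.3) and Benjamini-Hochberg adjustment at 0.05. Relative levels and ratios used exact permutation tests (scipy 1.17.1). Alternatives changed scaling, background, pseudocount, filter, block, test and samples. limma without trend, and the ligation scaling without MNC 1, were chosen after seeing the data. The exact tests on single counts, shares and signals were repeated without MNC 1 only, after its values were seen. Scripts were tested on simulated data. The text names the 4 members, the 3 rows most correlated with each detected member, and listed blood-cell rows above background in a whole group. The called rows, miR-155 and miR-21 of that list were named after their values were seen. Members and lists were chosen with earlier results of these data known.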

Additional observations from a re-analysis of the deposited data

Results flagged for a closer look

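Samples far from the rest of their group were looked for in 18 sets of 4 samples. Chance gives about 1 in 20 such sets, and 2 were found, both for miR-142-3p. On the log2(signal + 1) scale MNC 1 was far below the other MNC samples, with a gap to the nearest of 0.849 of the group's range. Its signal was 7.07 from 12 counts, against 21.18 to 25.56 in the other MNC samples. Relative to the median of the other mouse rows, KC 1 was far below the other KC samples, with a gap of 0.963 of the range. KC 1 stood at 1.86 times that median (signal + 1 over signal + 1), against a KC median of 2.28 and a highest value of 2.30.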

How the results depend on the processing

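On the deposited signal, miR-142-5p changed sign on the barcode counts (-0.25), at equal totals (-0.42) and on the ligation controls (-1.48), and it passed the threshold among rows above background on average (0.81). miR-142-3p changed sign at equal totals (-0.13) and on the ligation controls (-1.15), and passed with a pseudocount of 10 (0.74). miR-150 passed on the ligation controls (-2.34), where its groups overlapped. Leaving out 1 sample moved it from -1.29 to 0.59 on the deposited signal. The number of the 4 miRNAs called higher in KC rose from 0 to 1 with the negative control subtracted (miR-223), with a pseudocount of 10 (miR-142-3p) and among rows above background on average (miR-142-5p). All 4 were called lower on the ligation controls, and 1 (miR-150) was when MNC 1 was also left out, with differences of -1.22 for miR-142-5p, -1.20 for miR-142-3p and -3.18 for miR-150. Of the other blood-cell rows, 6 were called higher in the main fit, 11 with the negative control subtracted, 10 with a pseudocount of 10, and 0 by the Mann-Whitney test, on the barcode counts, at equal totals or on the ligation controls, where 12 were called lower (3 without MNC 1, and 0 higher). Over all 566 mouse rows the calls higher went from 140 to 332 and 252 in the same settings, and 258 were lower on the ligation controls (40 without MNC 1). The Mann-Whitney test called no mouse row, with 209 at an unadjusted exact p under 0.05. Leaving out 1 sample gave 0 to 9 of the 24 other blood-cell rows, with none without KC 1, KC 2 or KC 4. Relative to the other rows, miR-142-3p turned to -0.34 (rows above background in all samples as reference), -0.26 (total of the other rows) and -0.40 (negative control subtracted). Under the same references miR-142-5p was at -0.57, -0.48 and -0.81, and miR-150 at -1.48, -1.40 and -1.67, with no exact p under the threshold. Leaving out 1 sample gave -0.0088 to 0.22 for miR-142-3p, -0.26 to 0.041 for miR-142-5p and -1.94 to -0.45 for miR-150. The cause of these changes was not tested. The adjusted p over all settings ran from 0.00634 to 0.996 for miR-142-5p, 0.0451 to 1 for miR-142-3p and 5.06e-08 to 0.996 for miR-150. The value of 5.06e-08 came from limma on the ligation scale without MNC 1, a fit chosen after seeing the data.

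Deviations of same-numbered KC and MNC samples had correlations of 0.0209, 0.0798, 0.0167 and 0.104. Those of unlike numbers ran from -0.173 to 0.171. The correlations cover all mouse rows, 64.0% of them above background in no sample, so they cannot exclude a pairing. The labels give none, and the numbers were not taken as pairs. With the number as a replicate block, limma gave 0.81 for miR-142-5p (adjusted p = 0.423), 1.04 for miR-142-3p (0.0556) and -0.11 for miR-150 (0.853). The rows called higher over the panel rose from 140 to 198, and those of the other blood-cell list from 6 to 9. With counts under the highest negative control, differences of miR-142-3p in MNC and of miR-223 were not detectable at this depth.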
